A study of Mus musculus with 15 samples.

Results

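This account follows 10 genes of the elastic fibre and of the microfibrils that carry it, chosen by symbol because of their known function: Eln, Fbn1, Fbln1, Fbln2, Fbln5, Mfap4, Mfap5, Emilin1, Lox and Loxl1. All 10 were found among the 47729 features of the count table. F4/80+ CD64+ macrophages sorted from aortas of Apoe-/- mice (Apoe dko in the genotype label), a strain without apolipoprotein E that is prone to atherosclerosis, were sequenced as libraries labelled Olfr2+ or Olfr2- for the olfactory receptor Olfr2. All mice were female and had been fed a high fat diet for 4 weeks, and aortas of 4 mice were pooled, so the samples are technical replicates of pooled suspensions and p-values measure only the spread between them. Each sort held 100 to 200 cells, and its cDNA was amplified by Smart-Seq2, a method that copies whole transcripts from few cells. The label Olfr2- covers samples 1, 3 and 4 in 5 columns of the table, and Olfr2+ covers samples 2, 3 and 4 in 10 columns.

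Elastic fibres give the artery wall its recoil. Elastin is secreted as a soluble precursor, tropoelastin, and is deposited on a scaffold of fibrillin microfibrils with the help of fibulins, emilins and microfibril-associated proteins. Lysyl oxidases then cross-link it into an insoluble core. In the aorta smooth muscle cells and adventitial fibroblasts are known as the main producers, and macrophages are known mainly for enzymes that degrade elastin.

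Summed per sample, totals were 30.5, 85.0 and 73.9 M counts (M, 1000000) in Olfr2- samples 1, 3 and 4, and 364, 273 and 67.5 M in Olfr2+ samples 2, 3 and 4. By column the totals fell into 2 sets with a gap around 60 M. The deeper set was 7 Olfr2+ columns (2A to 2D and 3A to 3C), and the other 8 columns were the 5 labelled Olfr2- and Olfr2+ columns 3D, 4A and 4B. The protein-coding share of counts was 94.62 to 97.46% in the deeper set and 78.52 to 85.64% elsewhere. Olfr2 itself had 76, 34 and 35 counts in the Olfr2- samples and 1, 9 and 8 in the Olfr2+ samples, against the labels, so every direction below is between libraries labelled Olfr2+ and Olfr2-.

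Promoter sequence is given for 3 members, as a view of the region where their transcripts start. RefSeq promoter windows (build GRCm38.p6), from 250 before to 50 after a start, were at hand for 5 of the 10 members, in 7 windows. All 5 of these members were higher in the deeper columns within Olfr2+ (below). Those shown are Fbn1 at chr2:125506389-125506688 on the minus strand, the downstream of the 2 Fbln1 windows at chr15:85205758-85206057 on the plus strand, and the upstream of the 2 Fbln5 windows at chr12:101819070-101819369 on the minus strand. They are written 5′ to 3′ on the gene's strand, and capitals mark a GC box (GGGCGG on either strand).
Fbn1: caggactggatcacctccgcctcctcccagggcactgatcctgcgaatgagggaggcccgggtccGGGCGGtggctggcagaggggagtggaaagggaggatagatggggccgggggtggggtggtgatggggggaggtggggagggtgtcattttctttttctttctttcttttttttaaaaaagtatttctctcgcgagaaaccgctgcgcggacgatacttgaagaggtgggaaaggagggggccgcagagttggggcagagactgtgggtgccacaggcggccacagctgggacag
Fbln1: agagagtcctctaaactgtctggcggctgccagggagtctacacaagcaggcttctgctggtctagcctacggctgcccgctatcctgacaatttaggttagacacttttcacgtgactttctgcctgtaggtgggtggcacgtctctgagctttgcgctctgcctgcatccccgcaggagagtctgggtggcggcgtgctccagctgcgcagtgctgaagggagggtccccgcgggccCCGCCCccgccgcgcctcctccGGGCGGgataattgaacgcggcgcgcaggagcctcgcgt
Fbln5: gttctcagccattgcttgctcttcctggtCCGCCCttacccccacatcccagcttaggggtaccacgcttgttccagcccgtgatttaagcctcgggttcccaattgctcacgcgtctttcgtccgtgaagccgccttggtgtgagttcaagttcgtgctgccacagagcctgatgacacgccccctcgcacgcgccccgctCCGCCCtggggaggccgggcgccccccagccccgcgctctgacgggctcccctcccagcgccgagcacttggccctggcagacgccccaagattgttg
A GC box was found in 4 of the 7 windows, which belong to 4 of the 5 genes (Fbn1, Fbln1, Fbln2 and Fbln5), and in 35.7% of all 32851 windows of that length. The 3 windows shown are among these 4, and the Emilin1 window and the other windows of Fbln1 and Fbln5 had none. The AP-1 letters TGANTCA were in 0 of the 7 windows and in 7.81% of all windows. The TATA box letters TATAAA were in 0 of the 7 and 13.6% of all, and the TEAD letters GGAATG in 0 of the 7 and 14.7% of all. Both strands were searched, and these matches describe letters only.

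Over all columns, 6 of the 10 genes were higher in the libraries labelled Olfr2+: Eln, Fbln1, Fbln5, Mfap4, Mfap5 and Loxl1. The test was edgeR's quasi-likelihood F test on counts summed per sample, 3 against 3, with a Benjamini-Hochberg adjusted p under 0.05 over 24362 genes. None of the 10 was lower, and Fbn1, Fbln2, Emilin1 and Lox did not pass. Of all genes tested 1.12% were called higher and 0.46% lower. The log2 fold changes of the 10 ran from 3.70 to 6.06 with a median of 5.27, against a median of 0.24 over all genes tested. The spread within Olfr2+ was about as large as its mean: Fbln1, for one, had 2616 ± 2779 CPM (SD, n = 3) against 52.6 ± 38.7 (SD, n = 3) in Olfr2-, and Eln 559 ± 511 against 28.5 ± 18.9. In the 8 columns below 60 M counts, called shallow from here on (those above are called deep), the median of the 10 was 0.87 and none passed, against a median of -0.43 and 0% called in either direction over all genes there (edgeR, 3127 of 29989 genes and 2 of the 10 at an unadjusted p under 0.05). The call count over all columns went to 0 without Olfr2+ sample 2 (0.0204% of all genes), to 2 without Olfr2- sample 3 (0.25%) and to 9 without Olfr2+ sample 4 (3.25%). It was 5 without Olfr2- sample 4 (0.334%), 4 without Olfr2+ sample 3 (0.347%) and 4 without Olfr2- sample 1 (0.38%).

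The count also moved with the method, as did the share of all genes called higher. DESeq2 called 10 of the 10 and 14% of all genes higher (0 of the 10 and 9.37% lower), and limma-voom 0 of the 10 and 0%. Library totals gave 4 (0.353%), DESeq2 size factors 7 (1.19%), no filter 9 (1.5%), and a mean of at least 10 CPM 8 with the scaling kept (6.19%) and 0 with it recomputed (0%). The 8 library names as units gave 10 (3.4%), and the 15 columns 9 (3.18%). Both treat repeats of a sample as separate units, so their p-values take such repeats as independent. Columns can share 1 of these 8 names, while the description of each column gives it a library name of its own. Blocking on sample number gave 0 (0.00821%), and the depth set as a covariate 0 (0%). Samples 1 and 2 each carry a single label, so with the block only samples 3 and 4 bear on the label. No Olfr2- column is deep, so with the covariate the label difference rests on the shallow columns alone.

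**Figure D1:**
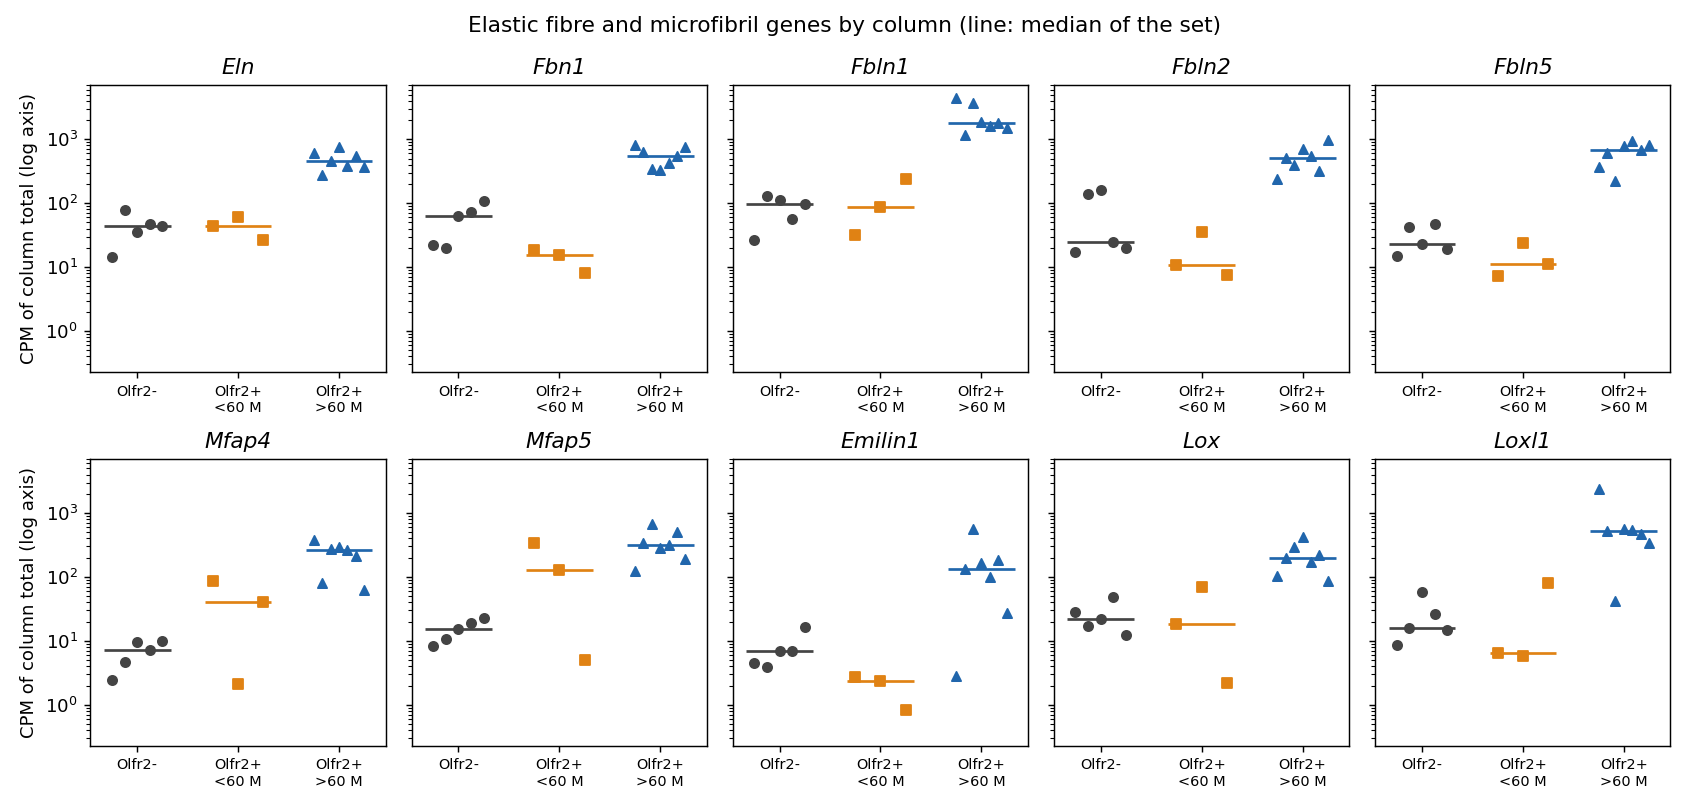
Counts per 1000000 of the column total (CPM, log axis) of each of the 10 genes in the 15 columns, with Olfr2- columns as circles, Olfr2+ columns below 60 M counts as squares and those above as triangles, and a line at each set's median. The triangles lie above all other columns for Eln, Fbn1, Fbln1, Fbln2, Fbln5 and Lox, while 2 squares for Mfap4 and for Mfap5, and 1 square for Fbln1, Lox and Loxl1, lie above every circle.

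Elastin (Eln), the elastic core protein, was at 8.82, 46.4 and 30.4 CPM in Olfr2- samples 1, 3 and 4 and at 1074, 551 and 52.7 in Olfr2+ samples 2, 3 and 4. These and the other sample values are scaled with edgeR's TMM factors. The groups did not overlap, but Olfr2+ sample 4 lay close to the highest Olfr2- sample. The log2 fold change was 4.29 (SE 1.12, adjusted p = 0.049 by edgeR). By column, Eln was at 279 to 751 CPM of the column total in the deep columns (median 454), at 26.2 to 61.2 in the shallow Olfr2+ columns and at 14.6 to 77.6 in the Olfr2- columns. Among the shallow columns its log2 fold change was 0.83 (SE 1.35, adjusted p = 0.843 by edgeR).

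Fibrillin-1 (Fbn1), the backbone of the microfibril, was at 13.4, 27.3 and 58.0 CPM in the Olfr2- samples and at 1094, 714 and 13.9 in the Olfr2+ samples. Olfr2+ sample 4 fell within the range of Olfr2-, so the groups overlapped. The log2 fold change was 4.21 (SE 1.17, adjusted p = 0.059 by edgeR). Among the shallow columns its value was -0.90 (SE 1.45, adjusted p = 0.841 by edgeR). All 3 of those Olfr2+ columns, at 8.03 to 18.8 CPM, lay below all 5 Olfr2- columns, at 20.2 to 109, and all 7 deep columns, at 336 to 815, lay above them.

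The microfibril-associated proteins Mfap4 and Mfap5 were the 2 members with the largest differences between labels in the shallow columns. Mfap5, which binds fibrillin, was at 4.94, 9.30 and 13.6 CPM in the Olfr2- samples and at 747, 482 and 86.3 in the Olfr2+ samples. Every Olfr2+ sample was above every Olfr2- sample, and the log2 fold change was 5.56 (SE 1.16, adjusted p = 0.028 by edgeR). Among the shallow columns, Olfr2+ 3D was at 341 and 4A at 130.4 CPM, above the 5 Olfr2- columns at 8.17 to 22.8, and 4B was at 5.02, below them. The log2 fold change there was 4.65 (SE 1.29), which did not pass (adjusted p = 0.411 by edgeR, unadjusted 0.0021).

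Mfap4, a fibrinogen-domain protein that binds elastin and fibrillin, was at 1.49, 4.80 and 5.53 CPM in the Olfr2- samples and at 525, 245 and 21.9 in the Olfr2+ samples. The groups did not overlap, and the log2 fold change was 6.06 (SE 1.33, adjusted p = 0.033 by edgeR). Below 60 M counts, Olfr2+ 3D was at 86.9 and 4B at 40.2 CPM, above the Olfr2- columns at 2.46 to 10.04, and 4A was at 2.13, below them. The log2 fold change there was 3.90 (SE 1.51, adjusted p = 0.441 by edgeR, unadjusted 0.019). Mfap4 and Mfap5 thus had different low columns within Olfr2+ sample 4.

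Emilin1, a glycoprotein of the interface between elastin and microfibrils, varied widely between columns. It was at 2.72, 3.76 and 7.36 CPM in the Olfr2- samples and at 448, 128 and 1.91 in the Olfr2+ samples, with Olfr2+ sample 4 below all 3 Olfr2- samples. The log2 fold change was 5.38 (SE 1.45, adjusted p = 0.0535 by edgeR). The deep columns spread from 2.82 (2A) to 557 CPM (2C), with a median of 134, and the shallow Olfr2+ columns were at 0.84 to 2.69, below all Olfr2- columns at 3.93 to 16.7.

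Of the fibulins, calcium-binding glycoproteins that bridge fibres and microfibrils, Fbln1 and Fbln5 were called higher over all columns and Fbln2 was not. Fbln1 was at 16.2, 93.2 and 48.6 CPM in the Olfr2- samples and at 5642, 2024 and 180.1 in the Olfr2+ samples. The groups did not overlap, and the log2 fold change was 5.63 (SE 1.05, adjusted p = 0.028 by edgeR). Fbln5, which tethers elastin to cell-surface integrins, was at 9.0, 26.1 and 23.1 CPM against 1019.9, 1020.0 and 20.9. Its Olfr2+ sample 4 fell within the Olfr2- range, although the gene was called (log2 fold change 5.15, SE 1.18, adjusted p = 0.038 by edgeR). Fbln2 was at 10.4, 109 and 14.9 CPM against 962, 763 and 26.5, and the groups overlapped through Olfr2- sample 3 (log2 fold change 3.70, SE 1.17, adjusted p = 0.075 by edgeR).

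Among the shallow columns the fibulins had log2 fold changes of 1.06 (SE 1.28) for Fbln1, -0.38 (SE 1.47) for Fbln5 and -1.22 (SE 1.53) for Fbln2. Their edgeR adjusted p values were 0.782, 0.938 and 0.791. Fbln1 ran from 31.6 to 241 CPM in those 3 Olfr2+ columns and from 26.7 to 132 in the 5 Olfr2- columns. The deep columns held 1171 to 4434 CPM of Fbln1 (median 1791), 242 to 989 of Fbln2 (median 514) and 222 to 956 of Fbln5 (median 686), above every other column for each gene.

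Lox and Loxl1 encode the copper-dependent lysyl oxidases that cross-link elastin and collagen. Loxl1 was at 5.24, 23.98 and 14.3 CPM in the Olfr2- samples and at 1778, 570.1 and 45.4 in the Olfr2+ samples, without overlap (log2 fold change 5.78, SE 1.20, adjusted p = 0.028 by edgeR). Lox was at 17.4, 14.1 and 21.5 CPM against 527, 201 and 46.3, also without overlap, and did not pass (log2 fold change 3.87, SE 1.14, adjusted p = 0.065 by edgeR). Below 60 M counts the values were 0.90 (SE 1.48) for Loxl1 and 1.00 (SE 1.38) for Lox, with edgeR adjusted p of 0.845 and 0.812. Loxl1 was at 81.7 CPM in Olfr2+ 4B and at 6.53 and 5.80 in 3D and 4A, and Lox was at 70.4 in 4A, 18.6 in 3D and 2.21 in 4B, so the 2 enzymes were high in different columns of 1 sample.

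By sample, 6 of the 10 genes were higher in all 3 Olfr2+ samples than in all 3 Olfr2- samples (Eln, Fbln1, Mfap4, Mfap5, Lox and Loxl1), as were 13.5% of all genes tested. Among the shallow columns, 0 of the 10 had all 3 Olfr2+ columns above all 5 Olfr2- columns, as had 1.02% of all genes, and 2 (Fbn1 and Emilin1) had all 3 below all 5, as had 5.18% of all genes. Against all 8 shallow columns, the 7 deep ones were higher without overlap for Eln, Fbn1, Fbln1, Fbln2, Fbln5 and Lox, 6 of the 10, as for 1.41% of all genes. The other 4 overlapped through 2A (Emilin1), 2C (Loxl1), 3C and 2B (Mfap4, against Olfr2+ 3D) and, for Mfap5, 2A, 2D, 3A and 3C (against Olfr2+ 3D, and 2A also against 4A).

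Within the label Olfr2+, the deep columns were compared with the shallow ones, to see how far the genes differed with no change of label. Columns were summed per sample and set, which gave 2 units in each set, with sample 3 in both. The fit took the 2 units of sample 3 as independent, and so do its p-values. Sample 2 was only in the deep set and sample 4 only in the shallow set, so the sets also differ by sample. In this comparison 7 of the 10 genes were higher in the deep columns (Eln, Fbn1, Fbln1, Fbln2, Fbln5, Emilin1 and Loxl1), none was lower, and Mfap4, Mfap5 and Lox did not pass (edgeR, adjusted p under 0.05). Of all 22033 genes tested 2.83% were called higher and 1.65% lower. The median log2 fold change of the 10 was 5.37, against 0.19 over all genes. By column, 7 of the 10 were higher without overlap (Lox in place of Loxl1), as were 2.85% of all genes. The count of 7 became 8 with DESeq2 (15.6% of all genes), 0 with limma-voom (0%) and 5 with library totals (0.504%). It was 7 with DESeq2 size factors (2.57%) and 4 with a minimum of 10 CPM and the scaling recomputed together (1.1%). With columns as units, which counts repeats as separate units, it was 7 (3.02%). Emilin1 had the largest difference of the 10, 6.95 (SE 1.20, adjusted p = 0.011 by edgeR), followed by Fbln5 with 6.34 (SE 0.87) and Fbn1 with 5.87 (SE 0.81), both at an edgeR adjusted p of 0.0033. Mfap5 had the smallest, 1.5 (SE 0.79, adjusted p = 0.175 by edgeR), and Mfap4 had 2.81 (SE 0.95, adjusted p = 0.075 by edgeR). No Olfr2- column was in the deep set, so the label could not be compared there.

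**Figure D2:**
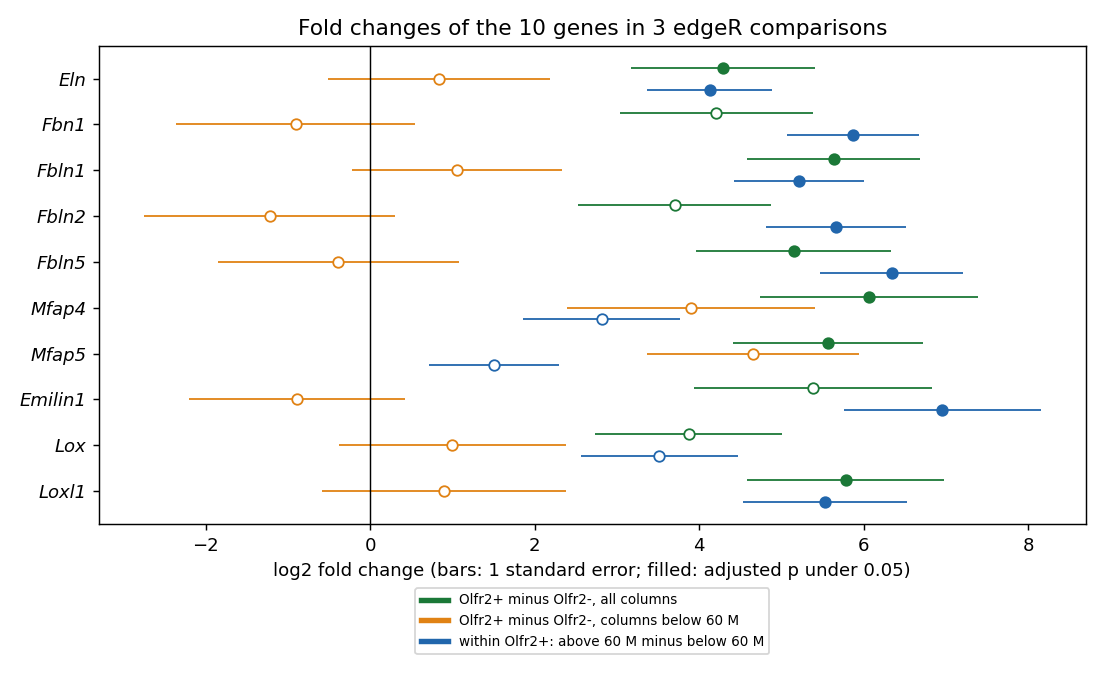
Log2 fold change with 1 standard error of each of the 10 genes in 3 edgeR comparisons, filled where the adjusted p is under 0.05. Between labels 6 genes are filled over all columns and none among the shallow columns, where Mfap4 (3.90) and Mfap5 (4.65) have the largest values; within Olfr2+ 7 genes are filled.

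Columns 3C and 3D share 1 of the 8 library names and lie in different depth sets, with protein-coding shares of 97.09 and 78.52%. Their descriptions name them as separate libraries, so whether columns that share a name are 1 library is not known. On the log2(CPM + 1) scale Fbln5 was 6.61 higher in 3C, Fbln2 6.41, Loxl1 and Fbln1 both 5.52, Fbn1 5.26, Eln 3.07, Emilin1 2.96 and Lox 2.15. The 2 exceptions were Mfap4, at -0.46, and Mfap5, at -0.86, which were higher in 3D. The median absolute difference between the 2 columns was 4.16 for the 10 genes and 2.08 for 8746 genes with a mean of at least 10 CPM.

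Columns that share a library name within a depth set also differed gene by gene. The median absolute difference of the 10 genes was 0.42 between Olfr2+ 3A and 3B, 0.92 between 2C and 2D, 1.30 between 2A and 2B and 1.77 between 4A and 4B, and 0.75 and 0.68 for the Olfr2- pairs of samples 3 and 4. The median of all genes of at least 10 CPM was 1.29 to 2.04 in these pairs. Emilin1 differed by 5.14 between 2A and 2B, Loxl1 by 3.74 between 2C and 2D, and Lox and Mfap5 by 4.48 and 4.45 between 4A and 4B. The lowest count of any member in any column was 25.

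**Figure D3:**
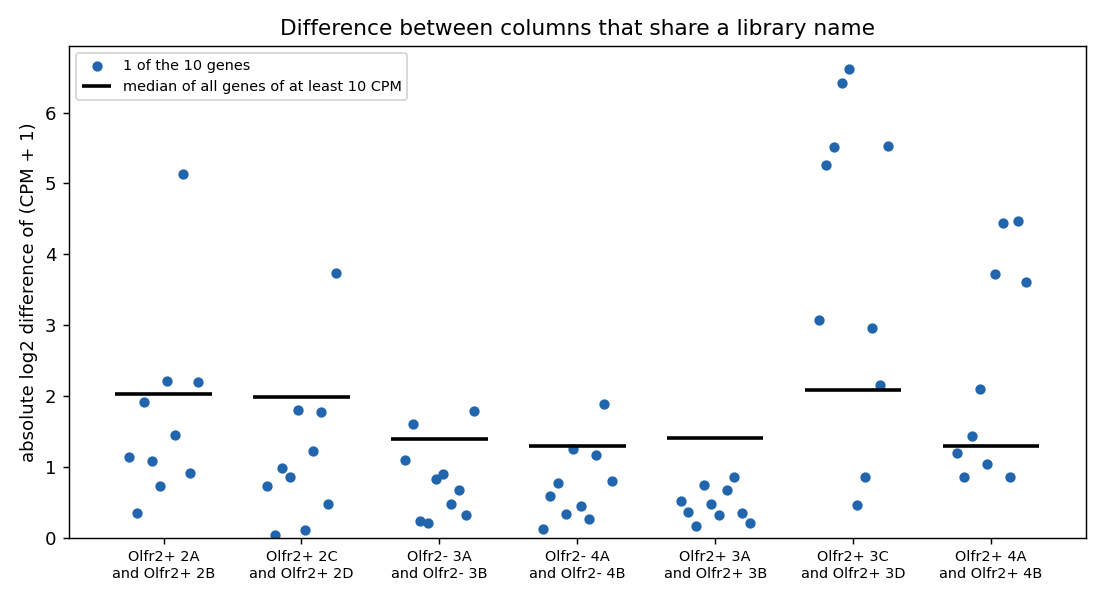
Absolute difference in log2(CPM + 1) between the 2 columns of each shared library name, with 1 point for each of the 10 genes and a bar at the median of all genes of at least 10 CPM. The pair Olfr2+ 3C and 3D, which spans the depth sets, has most points above 2 and its highest at 6.61.

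Per exon length, which allows genes to be compared, Fbln1 was the most abundant of the 10 in the deep columns. Its level there was 268 to 1015 CPM per 1000 bases of exon (median 410.1), and it ranked between 29 and 164 among 21858 protein-coding genes. By median, on the same scale, the order went on with Loxl1 (159), Mfap4 (139), Fbln5 (99.3), Mfap5 (88.9), Fbln2 (80.7), Eln (56.1), Fbn1 (45.4), Lox (41.3) and Emilin1 (27.0). The ranges of all neighbours in this order overlapped, and Fbln1 overlapped only with Loxl1, which ran from 12.7 to 734. In the Olfr2- columns Fbln1 was again first by median at 22.1 (6.11 to 30.2, ranks 1164 to 2709), Emilin1 was last at 1.39 (0.80 to 3.38), and the other 8 lay between 3.35 (Fbln5) and 5.40 (Eln).

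Cell type markers were read in the same columns. The summed level of 15 macrophage markers was 9365 to 17365 CPM in the deep columns. It was 5034 to 7834 in the shallow Olfr2+ columns and 4278 to 11082 in Olfr2-. The 3 most abundant of the 15 were lysozyme (Lyz2), Ptprc and Fcer1g, and 0 of the 15 were at 0 in any column. Lyz2 was at 4740 to 10335 CPM in the deep columns, 1320 to 2135 in the shallow Olfr2+ columns and 716 to 7847 in Olfr2-. Ptprc was at 301 to 792, 755 to 1917 and 612 to 2704 in the same order. Fcer1g was at 238 to 517, 859 to 1184 and 118 to 1666. Itgam was at 24.7 to 132, 298 to 367 and 151 to 518 (named after its values were seen). The summed level of 12 fibroblast markers was 47545 to 65054 CPM in the deep columns, 3254 to 6093 in the shallow Olfr2+ columns and 3323 to 4979 in Olfr2-. Its 3 most abundant genes were gelsolin (Gsn, median 18444 CPM in the deep columns), decorin (Dcn, 15518) and Col1a2 of type I collagen (8277). Of the 12, 9 were called higher in Olfr2+ over all columns (edgeR, against 1.12% of all genes), with a median log2 fold change of 4.45, and 0 among the shallow columns, with a median of 0.76. Dpt, Cd34 and Thy1 did not pass, and Thy1 had a log2 fold change of -0.59 over all columns. Among the shallow columns Thy1 had -3.52 and Cd34 -1.25. DESeq2 called 11 of the 12 higher over all columns, against 14% of all genes, and limma-voom 0, against 0%. Of the 15 macrophage markers 4 (Lyz2, C1qb, C1qc and Cd14) were called higher over all columns (edgeR, against the same 1.12%), with a median of 2.42. DESeq2 called 7 of the 15 higher and limma-voom 0. Within Olfr2+ 4 of the 15 were called higher in the deep columns by edgeR, against 2.83% of all genes. There 0 were called lower, against 1.65%, and the median was 2.00. The part of either list in the difference of the elastic fibre genes was not tested.

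The 10 elastic fibre genes together took 4485 to 9507 CPM in the deep columns (median 5501), 424 to 567 in the shallow Olfr2+ columns (median 435) and 148 to 505 in the Olfr2- columns (median 364). Set against the fibroblast markers of the same column, this sum was 7.87 to 16.8% in the deep columns (median 10.2%), 6.96 to 17.4% in the shallow Olfr2+ columns (median 9.67%) and 4.45 to 11.8% in the Olfr2- columns (median 9.27%). The ranges of this percentage overlapped among the 3 sets, whereas the sums in the deep columns were above all others for both lists. In bulk samples like these, fewer cells of a type and less RNA per cell cannot be told apart.

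**Figure D4:**
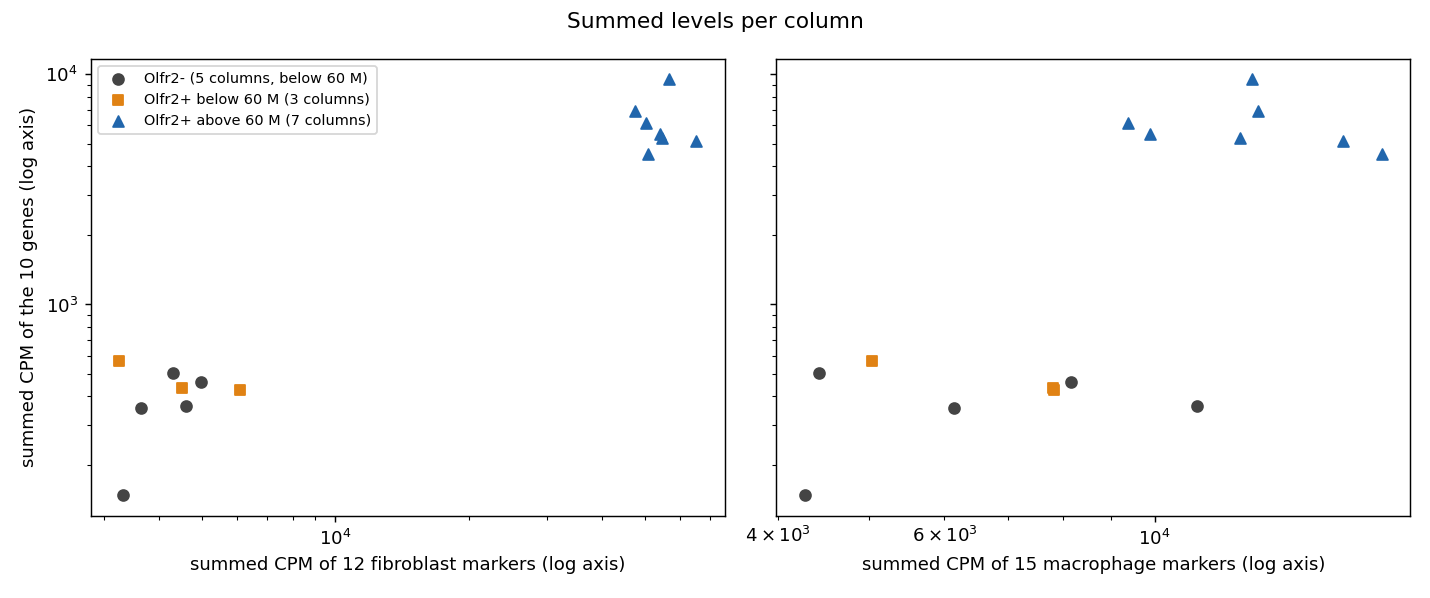
Summed CPM of the 10 elastic fibre and microfibril genes in each column against the summed CPM of 12 fibroblast markers (left) and 15 macrophage markers (right), on log axes. The 7 deep Olfr2+ columns, at 4485 to 9507 CPM, stand apart from the other 8, at 148 to 567, and the fibroblast sums part at the same columns.

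Markers of smooth muscle, a main source of elastin in the artery, were low beside the fibroblast markers. The sum of 10 genes was 6.17 to 204 CPM in the deep columns, 3.65 to 16.4 in the shallow Olfr2+ columns and 4.30 to 28.2 in Olfr2-, and 5 of the 10 (Tagln, Cnn1, Des, Actg2 and Myocd) had 0 counts in at least 1 deep column. The most abundant 3, Smtn, Mylk and Lmod1, had medians of 72.9, 11.2 and 0.90 CPM in the deep columns. Of the smooth muscle list 0 genes were called over all columns by edgeR (6 at an unadjusted p under 0.05, as were 7821 of all 24362 genes) and by limma-voom. DESeq2 called 4 of them higher, against 14% of all genes, and 1 lower, against 9.37%. Within Olfr2+ 1 of them, Smtn, was called higher in the deep columns, against 2.83% of all genes (log2 fold change 5.72, adjusted p = 0.0496 by edgeR). Endothelial markers (10 genes, 2.04 to 765 CPM in the deep columns, 15.2 to 72.1 in the shallow Olfr2+ columns, 39.3 to 213 in Olfr2-) had 0 calls by edgeR (1 at an unadjusted p under 0.05), 1 higher by DESeq2 (against the same 14%) and 0 by limma-voom, and 5 (Cdh5, Tie1, Egfl7, Emcn and Cldn5) were at 0 in at least 1 deep column. Pecam1, Vwf and Tek were their most abundant. Pecam1 was at 0.49 to 690.0 CPM in the deep columns (median 1.48). It was at 8.70 to 47.3 in the shallow Olfr2+ columns (median 32.8) and at 18.7 to 209 in Olfr2- (median 51.1). Mesothelial markers (6 genes, led by Muc16, Upk3b and Wt1) summed to at most 30.2 CPM and had 0 calls by edgeR (0 at an unadjusted p under 0.05), DESeq2 and limma-voom. The part of these lists in the results was not tested.

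Of 22 further genes that assemble elastic fibres or microfibrils or sit on them, 6 were called higher over all columns (edgeR, against 1.12% of all genes), 0 lower, and 16 did not pass. The 6 were biglycan (Bgn, a matrix proteoglycan), the fibulin-like Efemp1 and Efemp2, and Ltbp1, Ltbp3 and Ltbp4, which hold latent TGF-beta and bind fibrillin. Their log2 fold changes were 5.14, 5.47, 5.01, 5.10, 5.66 and 5.21, and edgeR's adjusted p ran from 0.028 (Bgn) to 0.047 (Efemp2). Among the shallow columns the values were 1.03, 0.30, 0.89, 2.14, 0.02 and 0.44, and none of the 22 was called. Bgn, the most abundant of the list, was at 1877 to 3580.5 CPM in the deep columns, 62.3 to 189 in the shallow Olfr2+ columns and 71.6 to 171 in Olfr2-. Emilin2, the next by mean level, was at 118 to 420.3 CPM in the deep columns and at up to 2488 in the Olfr2- columns, with a log2 fold change of -0.61 (adjusted p = 0.626 by edgeR). Fbn2, the fibrillin of this list, was at 0 to 5.64 CPM. It is named although it was neither called nor among the 3 most abundant.

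Of 9 genes for cross-linking and processing, 2 were called higher (edgeR, against 1.12% of all genes) and 7 did not pass. They were Pcolce, an enhancer of procollagen C-proteinase, with a log2 fold change of 5.22 (adjusted p = 0.032), and Bmp1, the proteinase that activates lysyl oxidase, with 5.98 (adjusted p = 0.028). Below 60 M counts these were 0.28 and 3.15. Bmp1 was at 209 CPM in 1 of the 3 Olfr2+ columns there and at 3.52 in the lowest, against 5.94 to 23.9 in Olfr2-. Furin, a proprotein convertase that processes profibrillin, had a log2 fold change of 0.0048 (adjusted p = 0.998 by edgeR).

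Among 15 elastases and their inhibitors, 2 were called higher (edgeR, against 1.12% of all genes), Mmp2 (gelatinase A, log2 fold change 6.05, adjusted p = 0.028) and the inhibitor Timp3 (5.70, adjusted p = 0.040), and 13 did not pass. Mmp2 was at 720 to 2349 CPM in the deep columns and at 16.8 to 69.0 in all others. The most abundant of the list were cystatin C (Cst3), cathepsin S (Ctss) and cathepsin L (Ctsl), with log2 fold changes of 1.95, 1.75 and 2.99 and edgeR adjusted p of 0.085, 0.098 and 0.056. Ctss, an elastase of macrophages, was at 1093 to 2122 CPM in the deep columns and at 1371 to 4358 in the shallow Olfr2+ columns, and its log2 fold change between them was 0.07 (adjusted p = 0.909 by edgeR). The macrophage elastase Mmp12 was at 0.25 to 376 CPM in the deep columns, with a median of 11.9 (named after its values were seen). It was at 2.56 to 15.3 in the shallow Olfr2+ columns and at 1.84 to 24.8 in Olfr2-. Its log2 fold change was 3.66 (SE 1.38), which did not pass (adjusted p = 0.096 by edgeR).

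Of 12 genes of the elastin receptor complex, TGF-beta and the integrins, Itgb5 (log2 fold change 5.36, adjusted p = 0.045 by edgeR) and Tgfb3 (5.87, adjusted p = 0.048) were called higher, against 1.12% of all genes, and 10 did not pass. Below 60 M counts these were -1.39 and -0.87. Itgb1 and Ctsa, the most abundant beside Itgb5, had 1.13 (adjusted p = 0.334 by edgeR) and 3.06 (adjusted p = 0.075). The medians of the 4 lists over all columns were 3.04, 2.13, 2.40 and 2.57 in the order described, and 0.06, 0.61, 0.25 and 0.71 among the shallow columns.

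The genes outside these lists whose level across columns was most like the sum of the 10, among 8242 candidates, were C3, Col14a1, Jun, Gas6 and Man2b1. C3 is complement component 3, Col14a1 a collagen that binds fibrils, Jun a subunit of AP-1, Gas6 a ligand of TAM receptors and Man2b1 a lysosomal mannosidase. Likeness was Pearson's r of log2(CPM + 1) over the 15 columns and was 0.98, 0.98, 0.97, 0.97 and 0.97. The columns share samples and fall into 2 sets, so r over all of them is a description. Within the 7 deep columns r was 0.89 for C3, 0.75 for Col14a1, 0.80 for Jun, 0.09 for Gas6 and 0.12 for Man2b1, and within the 8 others it was 0.52 (Jun) to 0.67 (Man2b1).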

How the data were processed

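The authors deposited raw whole-number read counts for 47729 features in 15 columns. Per the submitters' processing notes, DRAGEN, STAR 2.7.1 and DESeq2 1.34 were used with GRCm39, in roles not stated. For strandedness and annotation, the setting is not given in the sources used here. Reads from overlapping or antisense genes may therefore not be told apart. Smart-Seq2 counts carry no molecular identifiers, so reads are not separate molecules.

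Title numbers were taken as samples and letters as repeats, a reading the labels do not spell out, and repeats were summed. Genes were tested with edgeR 4.0.16 in R 4.3.3 (quasi-likelihood F test, TMM, edgeR's filter by group, Benjamini-Hochberg), and all 10 members passed the filter. A standard error is the log2 fold change over the root of F. DESeq2 1.42.0, limma 3.58.1 (voom) and other scalings, filters, units and omissions were alternatives. The fits were also run on simulated counts with independent units and changes of random sign. Depth sets confounded with label and a sample shared between sets were not simulated, so that run cannot vouch for the comparisons here. Exon lengths came from GENCODE M21 (GRCm38), in which 99.1% of gene identifiers were found. Where a symbol named more than 1 feature, as for Ltbp4, that with the most counts was used. The members, lists, tests and the 60 M division were chosen with earlier results of these data known. All members are named, with the called genes and the 3 most abundant of each pathway list and the 3 most abundant of each marker list; those most alike needed a proper symbol and a mean of at least 10 CPM.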

Additional observations from a re-analysis of the deposited data

Results flagged for a closer look

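Among the 20 sets examined (10 genes in the 5 Olfr2- and in the 10 Olfr2+ columns), 3 had 1 column farther from the rest than Dixon's 95% limit allows. Independent normal values pass that limit in about 1 in 20 sets. These columns include repeats, and those of Olfr2+ span both depth sets, so that rate does not apply to them. Emilin1 was at 557 CPM in Olfr2+ 2C, where the next column had 181, and at 16.7 CPM in Olfr2- 4B, where the next had 6.91. Loxl1 was at 2421 CPM in Olfr2+ 2A, where the next column had 571.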

How the results depend on the processing

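Of the 10 genes, 6 were called higher over all columns. This became 10 with DESeq2 and with the 8 library names as units, which count repeats of a sample as separate units. It became 0 with limma-voom (all 10 at an unadjusted p under 0.05), at a 10 CPM minimum with recomputed scaling (7 of the 10 at an unadjusted p under 0.05), in the columns below 60 M counts (2), with the depth set as a covariate (2), and with the sample number as a replicate block (4). For the label difference the block rests on samples 3 and 4 alone, and the covariate on the columns below 60 M counts. Leaving out each sample gave 0 to 9. It was 4 to 9 under the other settings. The median log2 fold change of 5.27 moved to 3.88 on library totals, 3.46 at 10 CPM with recomputed scaling, 2.53 with the replicate block, 0.87 below 60 M counts and 0.82 with the depth set as a covariate, and was 4.08 to 5.78 with each sample left out. The signs of 4 genes turned below 60 M counts and with the covariate: Fbn1 (-0.90 and -0.98), Fbln2 (-1.22 and -1.26), Fbln5 (-0.38 and -0.43) and Emilin1 (-0.89 and -0.97). Within Olfr2+, 7 genes higher in the deeper columns became 0 with limma-voom and 4 at 10 CPM with recomputed scaling. The causes were not tested. Samples sharing a number were treated as unpaired in the main test. Their correlation of deviations was 0.0125 for number 3 and -0.0495 for number 4, and pairs of unlike number gave -0.101 to 0.137. With 3 samples per label these values cannot show whether equal numbers belong together. No paired analysis was possible within Olfr2+ because it left no residual degrees of freedom. Library totals moved the median of all genes from 0.24 to -0.88. Every member had at least 25 counts in every column.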
